A study of Mus musculus with 27 samples.

Results

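Wild-type microglia given lipopolysaccharide (LPS) together with interferon-γ were set against wild-type microglia given PolyI:C, to describe which genes separate these 2 stimuli. The libraries were chosen by their labels alone, 3 per stimulus and 6 of the 27 in the series. All came from newborn C57BL/6J mice, whose microglia were shaken off mixed glial cultures of the cortex and stimulated for 16 h, with LPS from E. coli at 100 ng/ml plus interferon-γ at 20 ng/ml or with PolyI:C. The wild-type unstimulated libraries that carry the same run of library numbers (3 libraries) give the resting level. The same contrast was also available in 6 libraries labelled CB2-/-, from B6.Cg-Cnr2tm1Zim mice made to lack the cannabinoid receptor CB2, with 3 unstimulated libraries of that genotype. The labels do not say whether replicates were separate animals, pools or cultures, so the p-values given here measure only spread between libraries. That spread, and the standard errors, come from 1 estimate per gene shared by all 27 libraries of the series, other stimuli and genotype included. Replicates are numbered 1 to 3 in the order of the records.

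LPS is a bacterial cell wall component sensed by the receptor TLR4, which signals through MyD88 to NF-κB and through TRIF to IRF3 and type I interferon, while interferon-γ acts through its own receptor on promoter elements called GAS. PolyI:C is an analogue of double-stranded RNA, sensed by TLR3 and by the cytosolic RIG-I-like receptors, which drive NF-κB, IRF3 and type I interferon. Type I interferon then acts through a complex of transcription factors on the promoter element ISRE, so both stimuli reach interferon-responsive genes, by different routes.

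Levels are normalised counts per library, and a difference is the mean log2(normalised count + 1) with LPS plus interferon-γ minus that with PolyI:C, with its standard error (SE). A positive value is higher with LPS plus interferon-γ. Adjusted p-values come from limma's moderated test with Benjamini-Hochberg adjustment over 14668 genes, and called genes are those below 0.05. The scale understates the difference of genes near 0.

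The summed normalised counts of the 6 libraries ran from 8.40 to 9.47 M. Taking the most frequent value below 5 in a library as 1 read, they held about 5.64 to 18 M reads with LPS plus interferon-γ and 3.56 to 6.54 M with PolyI:C. Smaller values also occurred, so these read numbers are rough. PolyI:C replicate 1 was the shallowest by this estimate and stood apart. Of the tested genes 12.2% were at 0 in it, against 1.85 to 3.50% in the other 5 libraries, and its log2 values differed from those of PolyI:C replicates 2 and 3 with an SD of 0.642 and 0.664 over genes above a mean of 100. The SD between replicates 2 and 3 was 0.291, and between the LPS plus interferon-γ libraries 0.297 to 0.322. The defining markers of microglia had a mean log2 level of 10.25 to 10.48 with LPS plus interferon-γ and 10.33 to 10.82 with PolyI:C. The 11 astrocyte markers summed to 882.9 to 1015 with LPS plus interferon-γ and to 55, 593.6 and 667.8 with PolyI:C replicates 1 to 3, with Gfap, Aqp4, Sox9, Aldoc, S100b and Fgfr3 at 0 in PolyI:C replicate 1. The 11 fibroblast markers had a mean log2 level of 5.06 to 5.61 with LPS plus interferon-γ and 2.03, 5.46 and 5.41 with PolyI:C, with Col1a2, Lum, Pdgfrb, Fbln1 and Igf2 at 0 in PolyI:C replicate 1. None of the 10 astrocyte, 11 fibroblast or 3 neuron markers tested was called between the stimuli, though all of them had positive differences. Their medians were 1.84, 0.87 and 1.97, and 0.67, -0.17 and 1.74 without PolyI:C replicate 1. The 9 neuron markers in the data summed to 158 to 173 with LPS plus interferon-γ and to 12.5, 68.8 and 55.1 with PolyI:C replicates 1 to 3. Of 9 oligodendrocyte lineage markers tested, 5 differences were positive and 4 negative. Called markers of other cells were all higher with PolyI:C. They were Siglec1 and Ms4a7 of 7 border macrophage markers, whose sum was 19329 to 20239 with LPS plus interferon-γ and 29902 to 35336 with PolyI:C, Flt1 of 5 endothelial and pericyte markers, Cnp of 9 oligodendrocyte lineage markers and S100a8 of 4 monocyte and neutrophil markers. The part of these cells and of depth in the results was not tested, and list counts that PolyI:C replicate 1 changed are given without it too. Called border macrophage markers became 3 without it, all higher with PolyI:C. Of the 10 defining microglia markers, 1 was called each way with all libraries. Without PolyI:C replicate 1, 0 were higher with LPS plus interferon-γ and 4 higher with PolyI:C. The shares over all genes were 5.35% and 3.91% with all libraries. In these bulk libraries, fewer cells of a type and less RNA per cell cannot be told apart.

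Of 14668 genes, 1358 (9.26%) were called between the stimuli: 785 (5.35%) were higher with LPS plus interferon-γ and 573 (3.91%) were higher with PolyI:C. Counts of gene lists given below are to be set beside these shares of all genes. The direction of the large differences was uneven with all libraries. At least 4-fold differences were called for 202 genes higher with LPS plus interferon-γ and 40 higher with PolyI:C, and at least 16-fold ones for 35 and 3. The 3 genes past 16-fold on the PolyI:C side included Il19 and Ifitm7. These 4-fold and 16-fold counts include PolyI:C replicate 1, in which 12.2% of tested genes were at 0, and were not made without it. When it was left out, Ccne1 (3.84), Cish (3.85), Mab21l3 (3.55) and Cnn3 (2.24) fell below 16-fold. Cxcl9 rose to 6.03, and Hp went past 16-fold towards PolyI:C (-4.92). Called genes were 577 and 525 without PolyI:C replicate 1, and 663 and 486 with only the libraries compared in the fit. All 3 LPS plus interferon-γ libraries lay above all 3 PolyI:C libraries for 2434 genes (16.6%) and below them for 1794 (12.2%). The median difference of all tested genes was 0.05. Of the 785 genes higher with LPS plus interferon-γ, 442 were called above and 119 below the resting level in cells given LPS plus interferon-γ, and 224 above and 308 below it in cells given PolyI:C. Of the 573 higher with PolyI:C, 382 were above and 74 below the resting level with PolyI:C, and 244 above and 177 below it with LPS plus interferon-γ. These comparisons with rest share the same 3 unstimulated libraries.

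**Figure D1:**
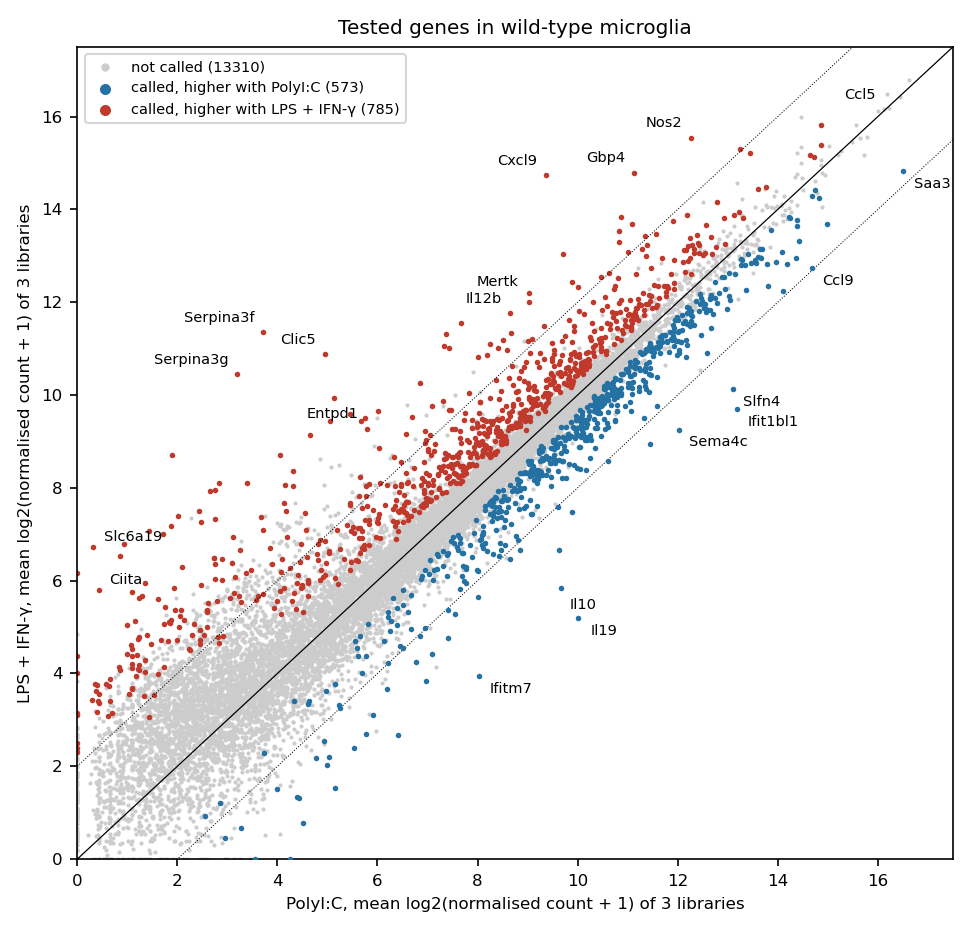
Each point is a tested gene in wild-type microglia, placed by its mean log2(normalised count + 1) over the 3 PolyI:C libraries (x axis) and over the 3 LPS plus interferon-γ libraries (y axis). The solid line marks equal levels, the dotted lines a 4-fold difference, and colours mark the 785 and 573 called genes. More called genes lie beyond the upper dotted line (202) than beyond the lower one (40), with the shallow PolyI:C replicate 1 included.

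The genes with the largest differences towards LPS plus interferon-γ were the protease inhibitors Serpina3f and Serpina3g, whose products block serine and cysteine proteases. Serpina3f stood at 2699, 2556 and 2582 with LPS plus interferon-γ, at 0, 38.6 and 55.4 with PolyI:C, beside 0, 0 and 0.389 at rest. All 3 libraries given LPS plus interferon-γ were far above the others, a log2 difference of 7.64 ± 0.99 (adjusted p = 8.24e-06, limma). Leaving out PolyI:C replicate 1, 2 or 3 in turn moved it between 5.79 and 8.70, and it passed the threshold each time. Serpina3g stood at 1331, 1324 and 1565 with LPS plus interferon-γ and 1.75, 20.7 and 11.9 with PolyI:C, and was at 0 in the resting libraries (7.26 ± 0.63, adjusted p = 2.35e-08, limma; 6.39 to 7.88 without 1 library). Both genes lie on the plus strand of chromosome 12 (GRCm38), Serpina3f at 104214544 to 104221129 and Serpina3g at 104236245 to 104241939, and reads may be split between such near copies. The chemokine Cxcl9, which draws T cells through CXCR3, stood at 27510, 26728 and 27450 with LPS plus interferon-γ and 1647, 388 and 446 with PolyI:C. Its resting libraries held 32, 1.73 and 0.947, so it lay above rest under both stimuli (log2 differences of 12.25 and 6.88). The groups did not overlap, and the difference was 5.37 ± 0.93 (adjusted p = 0.000312, limma) with all libraries and 6.03 without PolyI:C replicate 1.

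The rest of the 15 largest called differences towards LPS plus interferon-γ lay between 4.70 (Mb21d2) and 6.39 (Slc6a19, a transporter of neutral amino acids). Slc6a19 was at 91.7, 87.5 and 141 with LPS plus interferon-γ and at 0, 0.96 and 0 with PolyI:C. Clic5, of the chloride intracellular channel family, was at 1698, 1832 and 2168 against 16.5, 40.4 and 39.1. Rgs9, which shortens G protein signalling, was at 244, 317 and 263 against 2.44, 9.89 and 8.66, close to its resting 6.15, 6.13 and 8.18. These 3 genes had no overlap between the stimuli and kept the call when any of the 6 libraries was left out. The others were Plbd1 (5.86), C1s1, a protease of the first complement component (5.65), H2-Aa, an MHC class II chain (5.31), Kynu, the enzyme kynureninase (5.29), Ccne1, cyclin E1 (5.22), Cish, a feedback inhibitor of cytokine signalling (5.07), and Mab21l3 (4.79). Without PolyI:C replicate 1, in which several of them were at 0, they stood at 4.93 (C1s1), 4.37 (H2-Aa), 4.43 (Kynu), 3.84 (Ccne1), 3.85 (Cish) and 3.55 (Mab21l3), all still called. Leaving out PolyI:C replicate 2 or 3 instead raised these values to at most 6.62 (C1s1), 6.06 (H2-Aa), 6.05 (Kynu), 6.14 (Ccne1), 5.75 (Cish) and 5.47 (Mab21l3). Cnn3, calponin 3, lost its call without PolyI:C replicate 1 (4.81 with all libraries, 2.24 without it, adjusted p = 0.307, limma) or without any LPS plus interferon-γ library, and ranged up to 6.19.

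**Figure D2:**
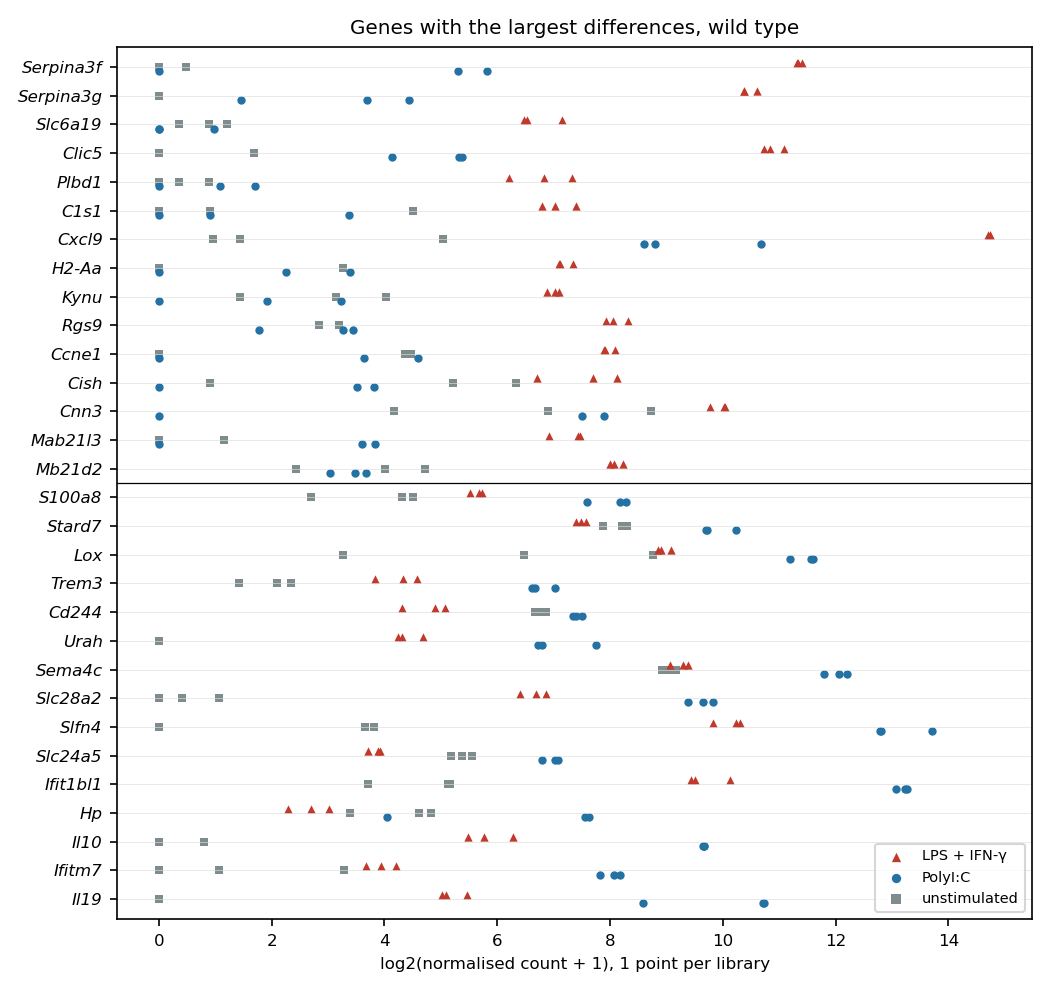
Log2(normalised count + 1) in each library for the 15 called genes with the largest difference in each direction among those averaging 100 or more under the stimulus with the higher level and not overlapping between stimuli. Points are single libraries given LPS plus interferon-γ, PolyI:C or nothing. Serpina3f and Serpina3g stand out in the LPS plus interferon-γ libraries, and Il19 and Ifitm7 in the PolyI:C libraries.

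Among the gene lists, that of interferon-γ signalling and feedback had the largest median difference. It also holds the response genes Serpina3g, Cxcl9, Ido1 and Nos2. The lists were chosen with earlier results of these data known, so this rank describes the chosen genes and is no test of the pathway. Of 19 tested, 14 were higher with LPS plus interferon-γ and 0 higher with PolyI:C, with a median of 2.24 beside 0.05 for all genes, and 13 were called without PolyI:C replicate 1. Irf1, a transcription factor of interferon signalling, stood at 11715, 11727 and 12293 with LPS plus interferon-γ and 1829.7, 1796 and 1789.7 with PolyI:C, with little spread in either group (2.72 ± 0.20, adjusted p = 1.52e-09, limma). Socs1, which blocks JAK kinases as feedback, was at 2569, 1665 and 2274 against 106, 173 and 219, again without overlap (3.74 ± 0.65, adjusted p = 0.000327, limma). Irf8 (2.00) and Batf2 (2.69), transcription factors of macrophages, were also called higher with LPS plus interferon-γ, as was Wars, the tryptophanyl-tRNA synthetase (2.16). The receptor chains moved the other way. Ifngr1, the ligand-binding chain of the interferon-γ receptor, was at 407, 395 and 395 with LPS plus interferon-γ, 771, 569 and 559 with PolyI:C, beside 2456, 2098 and 2089 at rest (-0.65 ± 0.11, adjusted p = 0.000197, limma). It lay below rest under both stimuli. Ifngr2 was called higher with PolyI:C too (-0.70).

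Guanylate-binding proteins (GBPs) and immunity-related GTPases, which attack vacuoles that hold microbes, followed the same side. Of 20 tested, 16 were higher with LPS plus interferon-γ and 0 higher with PolyI:C (median 1.84), and 14 were called without PolyI:C replicate 1. Gbp4 stood at 26728, 29277 and 29076 against 2165, 2256 and 2267, a difference of 3.67 ± 0.31 (adjusted p = 1.42e-08, limma). Gbp2b was nearly absent outside LPS plus interferon-γ, with 81.6, 99.2 and 93.1 against 0, 1.44 and 1.45 and 0, 0 and 0.738 at rest (5.66 ± 0.69, adjusted p = 3.9e-06, limma). Gbp2 was high in all stimulated libraries, with 37899, 40269 and 42841 against 8760.0, 10013 and 10424 (2.05 ± 0.33, adjusted p = 0.000154, limma). Of the immunity-related GTPases, Iigp1 was at 14367, 15422 and 14105 against 1819, 1911 and 1909 (2.96) and Tgtp1 at 1762, 2052 and 2438 against 183, 170.5 and 158 (3.59), both called. Gbp10 lost its call without PolyI:C replicate 1 (3.75 with all libraries, 3.30 without it, adjusted p = 0.0633, limma). Members of these families resemble each other, so the split of reads between them is uncertain.

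The called presentation genes of the MHC lists were all higher with LPS plus interferon-γ. For MHC class II presentation, 8 of 15 tested genes were higher with LPS plus interferon-γ and 0 higher with PolyI:C (median 1.22). Ciita, the factor that switches the class II genes on, stood at 40, 59.4 and 68.8 with LPS plus interferon-γ, at 0, 1.44 and 0 with PolyI:C, beside 0, 0 and 1.84 at rest (5.37 ± 0.78, adjusted p = 3.65e-05, limma). H2-Aa was at 138, 136 and 161 against 0, 3.78 and 9.41, and H2-Eb1 at 155, 136 and 198 against 2.36, 15.9 and 4.35. H2-Ab1 differed less, with 708, 667 and 652 against 128, 332 and 378 (1.42 ± 0.27, adjusted p = 0.00103, limma), and PolyI:C replicates 2 and 3 held more of it than replicate 1. Cd74, the invariant chain, was abundant at rest (1775, 1722 and 1871) and differed by 0.44, a call that was lost without LPS plus interferon-γ replicate 3 or PolyI:C replicate 1 (adjusted p up to 0.113, limma). H2-DMa, which loads peptides on class II molecules, was below its resting 135, 159 and 196 in every stimulated library, at 60, 55.8 and 79.7 against 1.73, 16.4 and 5.49. It differed by 3.27, and by 2.62 and 3.96 without PolyI:C replicates 1 and 2. For MHC class I presentation, 7 of 23 were higher with LPS plus interferon-γ and 0 higher with PolyI:C (median 0.32), among them the peptide transporter genes Tap1 (0.75) and Tap2 (0.89). Without PolyI:C replicate 1, 6 of the class II genes and 5 of the class I genes were called.

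Promoter windows of some genes from each side were read, as examples of interferon elements in these letters. Each window runs from 250 bases before to 50 bases after the start of the gene in RefSeq (build GRCm38.p6), written 5′ to 3′ on the strand of the gene, and capitals mark matches to the motifs searched on both strands. The motifs were the GAS letters TTCNNNGAA, an ISRE (GAAA, any 2 bases, GAAA), the CRE letters TGACGTCA and a κB element, some of which can overlap. The first 3 windows belong to genes higher with LPS plus interferon-γ and the last 3 to genes higher with PolyI:C. Every window printed holds a GAS or ISRE match, so they do not stand for the genes with the largest differences. None of these motifs matched in the windows of Cxcl9, Slc6a19, Clic5 and Rgs9, higher with LPS plus interferon-γ. The same held for Stard7, Slfn4 and S100a8, higher with PolyI:C.
Serpina3f (chr12:104214294-104214593, plus strand): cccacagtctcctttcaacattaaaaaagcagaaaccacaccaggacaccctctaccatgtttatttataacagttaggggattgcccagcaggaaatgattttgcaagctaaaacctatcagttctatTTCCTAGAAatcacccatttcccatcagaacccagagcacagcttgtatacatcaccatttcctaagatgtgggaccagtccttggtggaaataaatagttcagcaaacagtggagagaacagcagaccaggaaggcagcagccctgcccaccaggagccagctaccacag
Serpina3g (chr12:104235897-104236196, plus strand): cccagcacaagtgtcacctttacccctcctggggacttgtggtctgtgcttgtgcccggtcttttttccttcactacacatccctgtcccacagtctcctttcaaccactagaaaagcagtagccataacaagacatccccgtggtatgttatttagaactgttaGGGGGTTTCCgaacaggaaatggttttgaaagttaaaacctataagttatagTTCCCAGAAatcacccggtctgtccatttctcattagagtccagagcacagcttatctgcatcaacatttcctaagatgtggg
Gbp2b (chr3:142594597-142594896, plus strand): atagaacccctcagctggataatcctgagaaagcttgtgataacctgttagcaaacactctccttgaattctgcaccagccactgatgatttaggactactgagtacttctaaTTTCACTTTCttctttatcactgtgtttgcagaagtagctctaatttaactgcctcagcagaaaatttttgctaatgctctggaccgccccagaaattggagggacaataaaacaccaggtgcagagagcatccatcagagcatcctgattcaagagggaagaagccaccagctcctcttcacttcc
Ifit1bl1 (chr19:34601919-34602218, minus strand): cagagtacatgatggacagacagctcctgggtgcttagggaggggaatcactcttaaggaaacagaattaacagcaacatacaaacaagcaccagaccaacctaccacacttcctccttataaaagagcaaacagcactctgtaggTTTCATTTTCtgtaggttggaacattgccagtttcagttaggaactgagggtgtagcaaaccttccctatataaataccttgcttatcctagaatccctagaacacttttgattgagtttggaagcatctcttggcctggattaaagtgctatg
Ifit3 (chr19:34583279-34583578, plus strand): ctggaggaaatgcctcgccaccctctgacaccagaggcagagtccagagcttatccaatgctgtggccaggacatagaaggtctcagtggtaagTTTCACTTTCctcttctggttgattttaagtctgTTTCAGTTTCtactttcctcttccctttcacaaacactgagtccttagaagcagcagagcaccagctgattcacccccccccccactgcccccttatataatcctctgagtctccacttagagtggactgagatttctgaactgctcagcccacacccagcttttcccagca
Il19 (chr1:130940066-130940365, minus strand): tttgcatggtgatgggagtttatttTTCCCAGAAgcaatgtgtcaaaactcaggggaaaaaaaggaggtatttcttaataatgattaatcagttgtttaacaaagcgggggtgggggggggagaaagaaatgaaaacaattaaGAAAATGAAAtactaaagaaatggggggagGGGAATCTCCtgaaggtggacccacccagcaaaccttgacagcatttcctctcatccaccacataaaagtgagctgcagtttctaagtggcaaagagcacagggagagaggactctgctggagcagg
The Serpina3f window holds a GAS match 121 bases before the start. The Serpina3g window holds a GAS match 33 bases and a κB match 85 bases before it. Gbp2b has an ISRE match 137 bases before its start, Ifit1bl1 at 104 bases, and Ifit3 a pair of them at 156 and 122 bases. Il19 has a GAS match at 225, an ISRE match at 107 and a κB match at 77 bases before its start.

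Of 10259 tested genes with such a window, 6.96% held a GAS match, 3.37% an ISRE match, 9.96% a κB match and 3.26% a CRE match. Among genes higher with LPS plus interferon-γ by at least 4-fold, 11 of 136 windows held GAS and 10 held ISRE. Among those higher with PolyI:C by at least 4-fold, 4 of 23 held GAS and 4 of 23 held ISRE. A κB match was held by 22 of 136 and 3 of 23, and a CRE match by 3 of 136 and 1 of 23. At 2-fold or more, 23 of 304 and 12 of 137 windows held GAS, 16 and 11 ISRE, 46 and 18 κB, and 7 and 6 CRE. All 10 GBP and immunity-related GTPase windows held ISRE and 6 held GAS, while 9 of 16 windows of Schlafen and p200 genes held ISRE and 0 of 16 held GAS. Of the interferon-γ signalling genes 6 of 13 held GAS and 2 held ISRE, and of the type I interferon response genes 11 of 23 held ISRE and 5 held GAS. A match describes letters in these windows and no binding was measured.

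Among inflammatory mediators a few genes separated the stimuli and most did not. Of 19 proinflammatory cytokines tested, 3 were higher with LPS plus interferon-γ and 1 was higher with PolyI:C (median 0.74), and 2 each without PolyI:C replicate 1. Il12b, the p40 chain shared by the cytokines IL-12 and IL-23, stood at 3996, 3774 and 2764 with LPS plus interferon-γ, 120.3, 710.5 and 742 with PolyI:C and 0 at rest. The difference was 3.12 ± 0.59 (adjusted p = 0.000794, limma), and 2.25 without PolyI:C replicate 1. Tnf was at 11894, 11751 and 10030 against 3933, 6276 and 6245, with no overlap (1.06 ± 0.21, adjusted p = 0.00103, limma). Ebi3, a chain of the cytokines IL-27 and IL-35, was the member higher with PolyI:C, at 915, 838 and 911 against 1696, 1798 and 1820.4 (-1.0 ± 0.16, adjusted p = 9.06e-05, limma). Il6 was at 7976, 7846 and 6269 against 1152, 5421 and 5504 and was not called (1.17 ± 0.67, adjusted p = 0.344, limma). PolyI:C replicate 1 held the low value, and without it the difference was 0.42. Il1b differed by 0.87 ± 0.34 (adjusted p = 0.12, limma) and was not called either.

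Nos2, the inducible nitric oxide synthase, was among the most abundant transcripts with LPS plus interferon-γ, at 49456, 49814 and 44385 against 1865, 7905 and 8066 with PolyI:C. The groups did not overlap and the difference was 3.28 ± 0.82 (adjusted p = 0.0102, limma). The PolyI:C libraries were spread, and without replicate 1 the difference was 2.58 and missed the threshold (adjusted p = 0.0815, limma). Gch1, which makes the tetrahydrobiopterin that nitric oxide synthases need, went the other way, at 633, 566 and 685 against 886, 1159.6 and 1297 (-0.81 ± 0.18, adjusted p = 0.00389, limma). Acod1, which makes itaconate, stood at 32936, 33954 and 31584 against 17873, 25972 and 25419 and was not called (0.53 ± 0.33, adjusted p = 0.403, limma), and neither was Ptgs2, the prostaglandin synthase cyclooxygenase 2 (1.51 ± 0.50, adjusted p = 0.0618, limma). Arg1, arginase 1, differed by 1.47 ± 1.19 (adjusted p = 0.544, limma), and by -0.16 without PolyI:C replicate 1.

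Most chemokines tested were not called between the stimuli. Of all genes, 5.35% were called higher with LPS plus interferon-γ and 3.91% higher with PolyI:C. Of 14 CXC chemokines tested, 2 were higher with LPS plus interferon-γ and 0 with PolyI:C, the second being Cxcl16 (1.0), a ligand of CXCR6. Cxcl10, another CXCR3 ligand, was not called (0.84 ± 0.41, adjusted p = 0.241, limma). Of 12 CC chemokines, 0 were higher with LPS plus interferon-γ and 3 higher with PolyI:C, with and without PolyI:C replicate 1. Ccl3, a ligand of CCR1, stood at 13917, 13303 and 12227 against 24290, 37573 and 37079 (-1.30 ± 0.25, adjusted p = 0.00106, limma). Ccl4, a chemokine closely related to Ccl3, was at 7214, 7288 and 7118 against 14235, 21349 and 21550 (-1.38 ± 0.21, adjusted p = 6.62e-05, limma). Ccl9, a CCR1 ligand, was at 7763, 6871 and 5992 against 18448, 30950 and 32048 (-1.95 ± 0.30, adjusted p = 6.8e-05, limma). In each of the 3 the libraries did not overlap, and PolyI:C replicate 1 lay below the other PolyI:C libraries. Ccl5 was among the most abundant transcripts under both stimuli and its libraries overlapped, at 71477, 75993 and 73087 against 71958, 69172 and 72529, a difference of 0.05 ± 0.10 (adjusted p = 0.864, limma). The median difference was 1.03 for the CXC and 0.22 for the CC list, and 0.52 and -0.06 without PolyI:C replicate 1. Among chemoattractant receptors, Cysltr1, a leukotriene receptor, was called higher with PolyI:C, at 92.2, 145 and 74.8 against 394, 423 and 578 and 468, 592 and 572 at rest (-2.18).

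Molecules of the contact with T cells were also divided. Of 14 costimulatory and checkpoint genes, 5 were higher with LPS plus interferon-γ and 4 higher with PolyI:C, and 4 each without PolyI:C replicate 1. Cd86 stood at 8632, 8789 and 8435 against 1565, 2304 and 2386 (2.07 ± 0.22, adjusted p = 6.01e-07, limma), and Cd274, which encodes PD-L1, at 17924, 19102 and 17512 against 5233, 8312 and 8090.3 (1.36 ± 0.20, adjusted p = 4.16e-05, limma). Icam1, an adhesion molecule, was at 5247, 5179 and 5325 against 1575, 1751 and 1844 (1.61), and Cd83 differed by 1.86, both called. Cd40 was at 5997, 5797 and 5725 against 1242, 2187 and 2121, and its call was lost without PolyI:C replicate 1 (1.70 with all libraries, 1.44 without it, adjusted p = 0.0738, limma). Higher with PolyI:C were Cd48 (706, 655 and 669 against 1670.0, 1438 and 1484; -1.17), Vsir, which encodes the checkpoint VISTA (-0.85), Lgals9 (-0.80) and Tnfsf9 (-0.53), the last losing its call without replicate 2 or 3 of either stimulus (adjusted p up to 0.169, limma). Vsir fell from 5737, 5232 and 4949.7 at rest to 574, 529 and 562 with LPS plus interferon-γ and 956, 939 and 1108 with PolyI:C.

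Enzymes of tryptophan, NAD and nucleoside salvage were higher with LPS plus interferon-γ in 6 of 16 tested and higher with PolyI:C in 0 (median 1.35), and in 4 without PolyI:C replicate 1. Ido1, which starts tryptophan breakdown, was low but near absent outside LPS plus interferon-γ, with 40.9, 41.2 and 73 against 4.82, 0 and 1.48 (4.38 ± 0.72, adjusted p = 0.000175, limma; 3.74 to 5.01 without 1 library). Kynu, further along the same pathway, was at 117, 137 and 130.0 against 0, 2.78 and 8.37. Nampt, the rate-limiting enzyme of NAD salvage, stood at 8025, 8391 and 7489 against 3261, 3404 and 3235, with little spread (1.27 ± 0.10, adjusted p = 1e-08, limma). Of 18 complement genes, 7 were higher with LPS plus interferon-γ and 3 higher with PolyI:C, and 5 and 3 without PolyI:C replicate 1. Serping1, the C1 inhibitor, was at 268, 238 and 287 against 6.84, 32.2 and 29 (3.74 ± 0.87, adjusted p = 0.00589, limma; 3.07 without PolyI:C replicate 1), and C3, the central component, at 53222, 55257 and 67069 against 32681, 28389 and 29068 (0.96). The 3 higher with PolyI:C were receptors, C3ar1 (-0.74), C5ar1 (-0.43) and the integrin chain Itgam (-0.41). The calls of C5ar1 (without LPS plus interferon-γ or PolyI:C replicate 2 or 3) and Itgam (also without LPS plus interferon-γ replicate 1) were lost, at adjusted p up to 0.155 and 0.16 (limma).

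On the PolyI:C side the type I interferon response genes were above rest under both stimuli and a little higher with PolyI:C. Their median difference from rest was 3.40 with LPS plus interferon-γ and 3.90 with PolyI:C. Of 31 tested, 12 were higher with PolyI:C and 0 higher with LPS plus interferon-γ (median -0.46 beside 0.05 for all genes), and 9 without PolyI:C replicate 1. Ifit3, which restrains viral RNA, stood at 9156, 9881 and 12000 with LPS plus interferon-γ, 19314, 23738 and 23378 with PolyI:C, beside 1007, 582 and 643 at rest (-1.10 ± 0.19, adjusted p = 0.000328, limma). Mx2, a dynamin-like antiviral GTPase, was at 739.7, 735 and 980.2 against 1923, 1601 and 1764 (-1.12), and Usp18, which removes ISG15 and dampens the receptor, at 4298, 4185 and 5032 against 6700.3, 9298 and 9463 (-0.90), both called. Oas1a and Oas1g, sensors of double-stranded RNA, differed by -0.66 and -0.91. Isg15 was not called (-0.29 ± 0.20, adjusted p = 0.455, limma). Rsad2, which encodes viperin, passed only without PolyI:C replicate 1 (-0.83 ± 0.28, adjusted p = 0.0618 with all libraries and 0.0433 without it, limma). Ifit1 (-0.64, adjusted p = 0.019, limma) missed the threshold without LPS plus interferon-γ replicate 1 or 2 or PolyI:C replicate 2 or 3 (adjusted p up to 0.0817).

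The sensors of double-stranded RNA themselves were higher in cells given PolyI:C. Of 20 RNA sensing genes, 6 were higher with PolyI:C and 1 higher with LPS plus interferon-γ (median -0.23), and 4 and 1 without PolyI:C replicate 1. Tlr3, the endosomal receptor of PolyI:C, stood at 791, 954 and 1049 against 1758, 2416 and 2205, above a resting 361, 336 and 317 (-1.19 ± 0.21, adjusted p = 0.000447, limma). Ddx58, which encodes RIG-I, was at 2331, 2278 and 3013 against 5302, 5798 and 5768 (-1.16 ± 0.17, adjusted p = 3.29e-05, limma). Ifih1, which encodes MDA5, was not called (-0.48 ± 0.21, adjusted p = 0.185, limma). Tlr4, the LPS receptor, did not differ beyond the error (0.18 ± 0.22, adjusted p = 0.719, limma), and was below rest under both stimuli, at 245, 282 and 352 and 303, 216 and 255 from 781, 788 and 758. Ifnb1, interferon-β, was higher with LPS plus interferon-γ at 16 h, at 31.7, 32.6 and 39.5 against 0, 11.6 and 5.8 (3.01 ± 0.92, adjusted p = 0.0406, limma). This call was lost without PolyI:C replicate 1 (1.94) or replicate 3 or any LPS plus interferon-γ library (adjusted p up to 0.281), and the values ranged from 1.94 to 3.76.

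Schlafen genes and the p200 family of DNA-binding interferon-inducible genes were called on the PolyI:C side alone. Of 18 tested, 9 were higher with PolyI:C and 0 higher with LPS plus interferon-γ (median -0.65), and 3 passed without PolyI:C replicate 1. Ifi204 stood at 7662, 7840.3 and 8305 against 12616, 13145 and 12948 (-0.70 ± 0.14, adjusted p = 0.00168, limma), and Ifi207 at 2698, 2902 and 3109.8 against 5661, 5026 and 4779 (-0.83 ± 0.14, adjusted p = 0.00028, limma). Slfn4 was at 909, 1198 and 1272 against 13430, 7196 and 7072, from 0, 13.2 and 11.5 at rest, and was highest in PolyI:C replicate 1 (-2.98 ± 0.86, adjusted p = 0.0276, limma). Its call held only with PolyI:C replicate 3 left out or with all libraries (adjusted p up to 0.109). The largest difference of an Ifit gene was that of Ifit1bl1, a near relative of Ifit1, at 727, 692 and 1121 with LPS plus interferon-γ, 8666, 9574 and 9913 with PolyI:C, beside 12.1, 33.9 and 34.9 at rest (-3.50 ± 0.78, adjusted p = 0.00416, limma). Ifitm7, of the interferon-induced transmembrane family, was at 11.8, 14.4 and 17.4 against 268, 225 and 289 (-4.08 ± 0.75, adjusted p = 0.000647, limma). Stimulus groups did not overlap for any gene named in this paragraph.

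Il10 and Il19, neighbouring genes on chromosome 1 that encode related cytokines, were both higher with PolyI:C. Il10, an anti-inflammatory cytokine, was at 53.3, 43.9 and 76.5 with LPS plus interferon-γ and 812, 804 and 816 with PolyI:C, with resting libraries at 0, 0 and 0.738. The 3 PolyI:C libraries agreed closely and lay above the others (-3.82 ± 0.77, adjusted p = 0.00146, limma). Il19 was at 31.6, 43.2 and 33.1 against 383, 1692 and 1676, with PolyI:C replicate 1 below replicates 2 and 3 (-4.81 ± 0.80, adjusted p = 0.000188, limma). Without that library it was -5.52. Il19 lies at 130932656 to 130940115 on the minus strand and Il10 at 131019845 to 131024974 on the plus strand of chromosome 1 (GRCm38). Of the other 14 tested genes of that list, 3 were higher with LPS plus interferon-γ, among them Hmox1, heme oxygenase 1 (11724, 10904 and 9722 against 3478, 5749.5 and 5647; 1.15), and Il10ra, the ligand-binding chain of the IL-10 receptor (0.51). Of all 16 genes of the list, 2 were higher with PolyI:C and 3 with LPS plus interferon-γ, becoming 4 and 3 without PolyI:C replicate 1.

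Acute-phase proteins split between the stimuli. Of 14 serpin and acute-phase genes, 5 were higher with LPS plus interferon-γ, chiefly the serpins above and Serpinb9, the granzyme B inhibitor (2.85), and 3 were higher with PolyI:C. Saa3, a serum amyloid A made by macrophages, was the most abundant of these, at 29711, 30937 and 26549 against 79146, 99438 and 103760 (-1.69 ± 0.24, adjusted p = 2.59e-05, limma). Saa1 was low, at 0, 1.12 and 1.38 against 20.5, 14.2 and 34.6 (-3.72 ± 0.80, adjusted p = 0.00275, limma). Hp, haptoglobin, was at 5.48, 7.1 and 3.89 against 15.5, 187 and 197 (-3.74 ± 0.74, adjusted p = 0.00118, limma), and at -4.92 and -3.13 without PolyI:C replicates 1 and 3. S100a8, a calcium-binding protein of myeloid cells, was at 45, 50.1 and 52.3 against 191, 289 and 309.9 (-2.37), called. S100a8 is one of 8 monocyte and neutrophil markers in the data, which summed to 77.5 to 104 with LPS plus interferon-γ, 259 to 386 with PolyI:C and 30 to 45.2 at rest. Of these, S100a9, Mpo, Ngp and Ltf were at 0 in all 6 stimulated libraries, while Ly6c2 and Camp were above 0 in all 6 and at 0 at rest. The part of such cells in these values was not tested.

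Other genes among the 15 largest called differences towards PolyI:C had roles outside the interferon response. Sema4c, a membrane semaphorin, stood at 536, 667 and 631 with LPS plus interferon-γ, 3552, 4277 and 4725 with PolyI:C, beside 520.4, 483 and 573 at rest (-2.77 ± 0.12, adjusted p = 9.37e-14, limma). Its level with LPS plus interferon-γ was near rest. Stard7, a mitochondrial phosphatidylcholine carrier, was at 177, 189.6 and 167 against 1205, 845 and 834 (-2.41 ± 0.24, adjusted p = 1.43e-07, limma). Cd244, a receptor for Cd48, was at 28.6, 18.9 and 32.8 against 161, 167 and 180.4, from 108, 115 and 101 at rest (-2.65 ± 0.29, adjusted p = 8.52e-07, limma). It and Cd48 were both higher with PolyI:C. Slc24a5, a sodium, calcium and potassium exchanger, differed by -3.13. Slc28a2, a nucleoside transporter, was at 83.4, 116 and 102 against 670.0, 908 and 801 and at most 1.1 at rest (-2.97). The last 3 of the set were Trem3 (-2.52), Lox, lysyl oxidase (-2.50), and Urah (-2.67). The calls of Trem3 (without any of the 6 libraries), Lox (without any but PolyI:C replicate 1), Urah (without LPS plus interferon-γ replicate 1 or 2 or PolyI:C replicate 1) and Slc28a2 (without LPS plus interferon-γ replicate 1 or 3 or PolyI:C replicate 2) were lost, at adjusted p up to 0.12 (limma).

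Phagocytic receptors differed in both directions. Of 20 Fc and scavenger receptor genes, 3 were higher with LPS plus interferon-γ and 4 higher with PolyI:C, and 3 and 6 without PolyI:C replicate 1. The shares over all genes were 5.35% and 3.91%. Fcgr2b, the inhibitory Fc receptor, stood at 5285, 5749 and 4778 against 10383, 16545 and 16780 (-1.44 ± 0.22, adjusted p = 5.76e-05, limma). Fcgr1, the high-affinity receptor, was at 7029, 6758 and 7914 against 13537, 14033 and 15013 (-0.97), and Siglec1, a sialic acid receptor, at 7845, 7634 and 8392 against 16970, 23378 and 23277 (-1.40), both called. Fcgr3, a low-affinity activating receptor, was higher with LPS plus interferon-γ, at 5166, 5059 and 4827 against 1264, 1867 and 2095 and 6759.8, 8099.9 and 7333 at rest (1.56 ± 0.14, adjusted p = 3.48e-08, limma). Marco, a scavenger receptor for bacteria, was at 3265, 3557 and 4019 against 995, 1059 and 1054 (1.8), and Msr1, another scavenger receptor, at 8681, 9549.7 and 7864 against 15095, 18462 and 18815 (-1.0). Clec4n, which encodes Dectin-2, stood at 1276, 1276 and 1120.1 with LPS plus interferon-γ, 94.2, 133 and 120.0 with PolyI:C, beside 949, 795 and 964 at rest (3.40 ± 0.22, adjusted p = 1.05e-10, limma). It was near rest with LPS plus interferon-γ and far below rest with PolyI:C.

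Some genes of homeostatic microglia were likewise far lower with PolyI:C than with LPS plus interferon-γ or at rest. Mertk, a receptor for the uptake of dead cells, stood at 4229, 4291 and 3762 with LPS plus interferon-γ, 441, 573 and 557 with PolyI:C, beside 1472, 1393 and 1511 at rest (2.97 ± 0.14, adjusted p = 2.75e-13, limma). Entpd1, the ectoenzyme CD39 that degrades ATP, was at 637, 535 and 699, 28, 56.2 and 99.3 and 944, 1103 and 1126 in that order (3.50 ± 0.58, adjusted p = 0.000194, limma). Sall1, a transcription factor of microglial identity, was at 559.8, 620.0 and 538, 84.9, 88.1 and 113 and 594, 612 and 588 (2.58 ± 0.18, adjusted p = 3.69e-10, limma). Other homeostatic genes were low under both stimuli. Tmem119 fell from 420.5, 677 and 581 at rest to 3.18, 2.96 and 19.8 and 4.5, 19.3 and 27.6, and P2ry12 from 301, 369 and 385 to 36, 39.1 and 24 and 39.6, 48.5 and 60.5. P2ry12 was not called between the stimuli (-0.58 ± 0.49, adjusted p = 0.573, limma). Tmem119 was called only without LPS plus interferon-γ replicate 3 or PolyI:C replicate 1 (-1.07 with all libraries, adjusted p = 0.241, limma; -1.78 without the latter; -1.86 to -0.59 over the 6 fits). Olfml3 fell from 2849.7, 3862 and 3519 to 99, 113 and 112 and 282, 276 and 257, and was higher with PolyI:C (-1.33 ± 0.13, adjusted p = 8.94e-08, limma). Of the 26 homeostatic genes, 4 were higher with LPS plus interferon-γ and 4 higher with PolyI:C (median -0.18), and 4 and 8 without PolyI:C replicate 1. Another of those higher with PolyI:C was Gpr84, a receptor for medium-chain fatty acids, at 1849, 1794 and 1816 against 3852, 5021 and 5083 (-1.34).

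**Figure D3:**
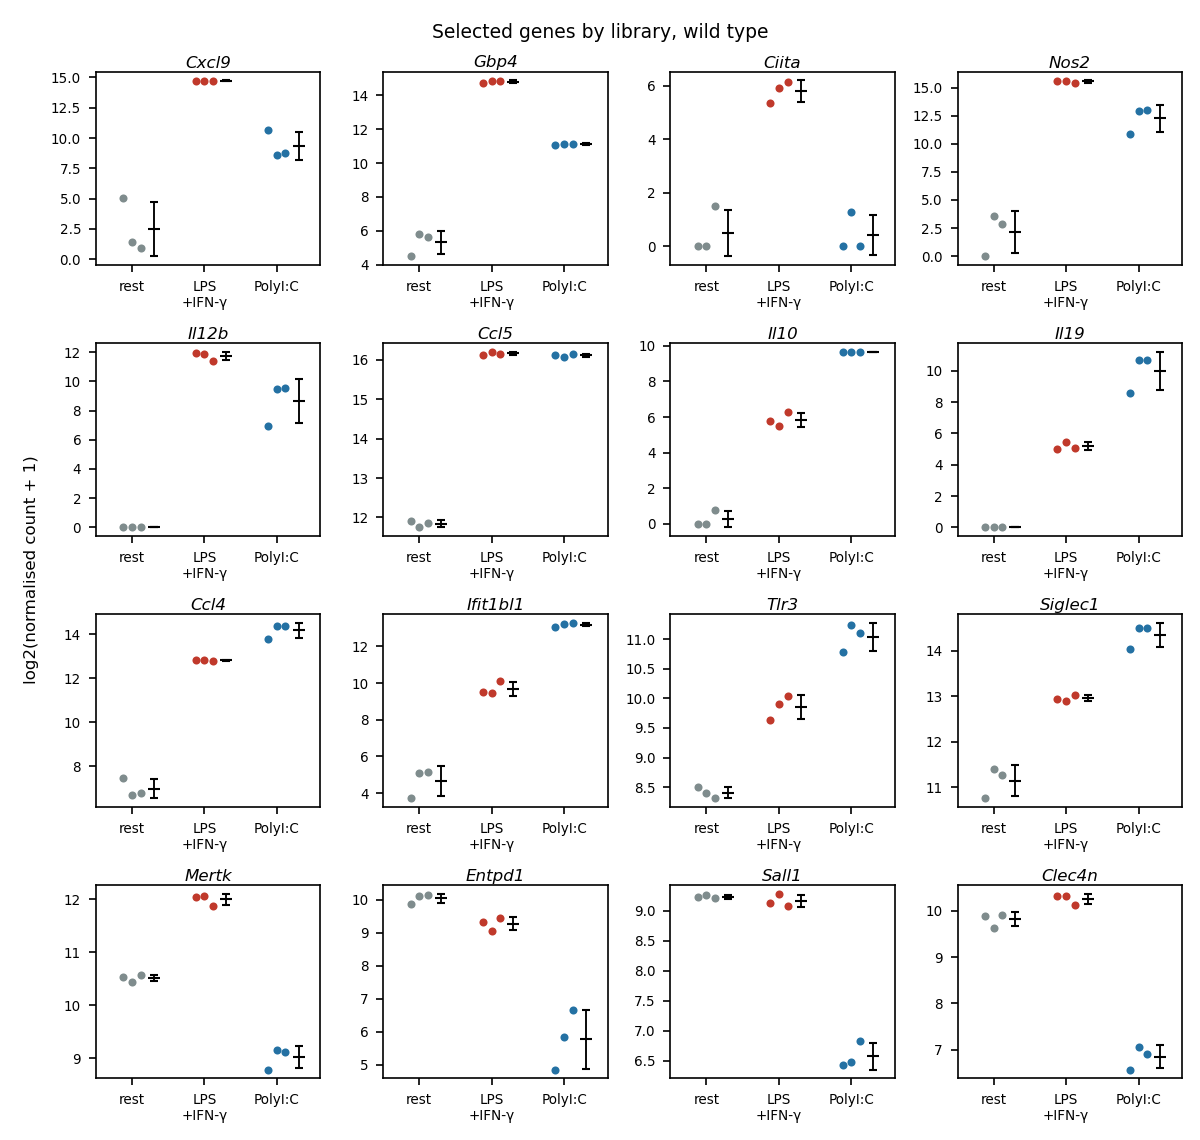
Normalised counts on a log2(value + 1) axis for 16 genes in the wild-type libraries, each point a library given LPS plus interferon-γ, PolyI:C or nothing. Cxcl9 and Ciita are highest with LPS plus interferon-γ, Il10 and Il19 with PolyI:C, Ccl5 overlaps between the stimuli, and Mertk, Entpd1, Sall1 and Clec4n are lowest with PolyI:C.

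Genes linked to disease-associated microglia also went both ways, with 2 of 22 higher with LPS plus interferon-γ and 5 higher with PolyI:C. Without PolyI:C replicate 1 there were 3 each, and the shares over all genes were 5.35% and 3.91% with all libraries. Lgals3, galectin-3, stood at 11573, 11314 and 11235 against 2849.8, 2973 and 3302 and 4879.7, 3542 and 3929 at rest (1.91 ± 0.16, adjusted p = 1.89e-08, limma). Lpl, lipoprotein lipase, was at 1565, 1576 and 1302 against 292, 608 and 576, below its resting 4367, 2597 and 3363 (1.66 ± 0.21, adjusted p = 7.54e-06, limma). Spp1, osteopontin, went the other way, at 5363, 5025 and 4186 against 9700.1, 24338 and 22888 (-1.86 ± 0.44, adjusted p = 0.00725, limma). Cnr2, which encodes CB2, fell from 178, 230.0 and 233 at rest to 22, 18.3 and 20.7 and 9.57, 7.32 and 16.2. The stimuli did not overlap, but the difference was not called (0.89 ± 0.54, adjusted p = 0.381, limma).

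Metabolic genes differed in a few members. Of 26 genes of glycolysis and hypoxia, 5 were higher with LPS plus interferon-γ and 1 higher with PolyI:C (median 0.37), with the same counts without PolyI:C replicate 1. Hk3, a hexokinase of myeloid cells, stood at 14152, 15355 and 15487 against 4360.3, 4810.0 and 4740.0 (1.69 ± 0.11, adjusted p = 1.04e-10, limma), and Hilpda, a lipid droplet protein, at 1661, 1699.7 and 1419 against 266, 514 and 514 (1.94 ± 0.26, adjusted p = 1.33e-05, limma). Vegfa, the vascular growth factor, was at 1153, 1158 and 886 against 217, 247 and 217, around a resting 395, 404 and 564 (2.22 ± 0.54, adjusted p = 0.00865, limma). Pfkfb3, which drives phosphofructokinase, was the member higher with PolyI:C (4013, 4154 and 4479.5 against 7938, 8713 and 8762; -1.01). Transcripts encoded by the mitochondrial genome were higher with LPS plus interferon-γ in 8 of 13 and higher with PolyI:C in 0 (median 0.82), also without PolyI:C replicate 1. Mt-Nd1, a subunit of respiratory complex I written mt-Nd1 in the annotation, was at 10645, 9912 and 8626 against 4584, 5867 and 6144 and 12000, 14315 and 12495 at rest. These transcripts made up 1.86 to 2.25% of the summed values with LPS plus interferon-γ and 1.50 to 1.6% with PolyI:C, and a part of RNA quality in this was not tested. Of 20 nuclear genes of oxidative phosphorylation, 2 were higher with LPS plus interferon-γ, beside 5.35% of all genes, and 0 without PolyI:C replicate 1. Stress and heat shock genes were higher with LPS plus interferon-γ in 6 of 21 and in 3 without PolyI:C replicate 1, among them Atf3 (3618, 3838 and 3665 against 1624, 2184 and 2222; 0.90) and Ppp1r15a, the feedback phosphatase subunit GADD34 (1.19).

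**Figure D4:**
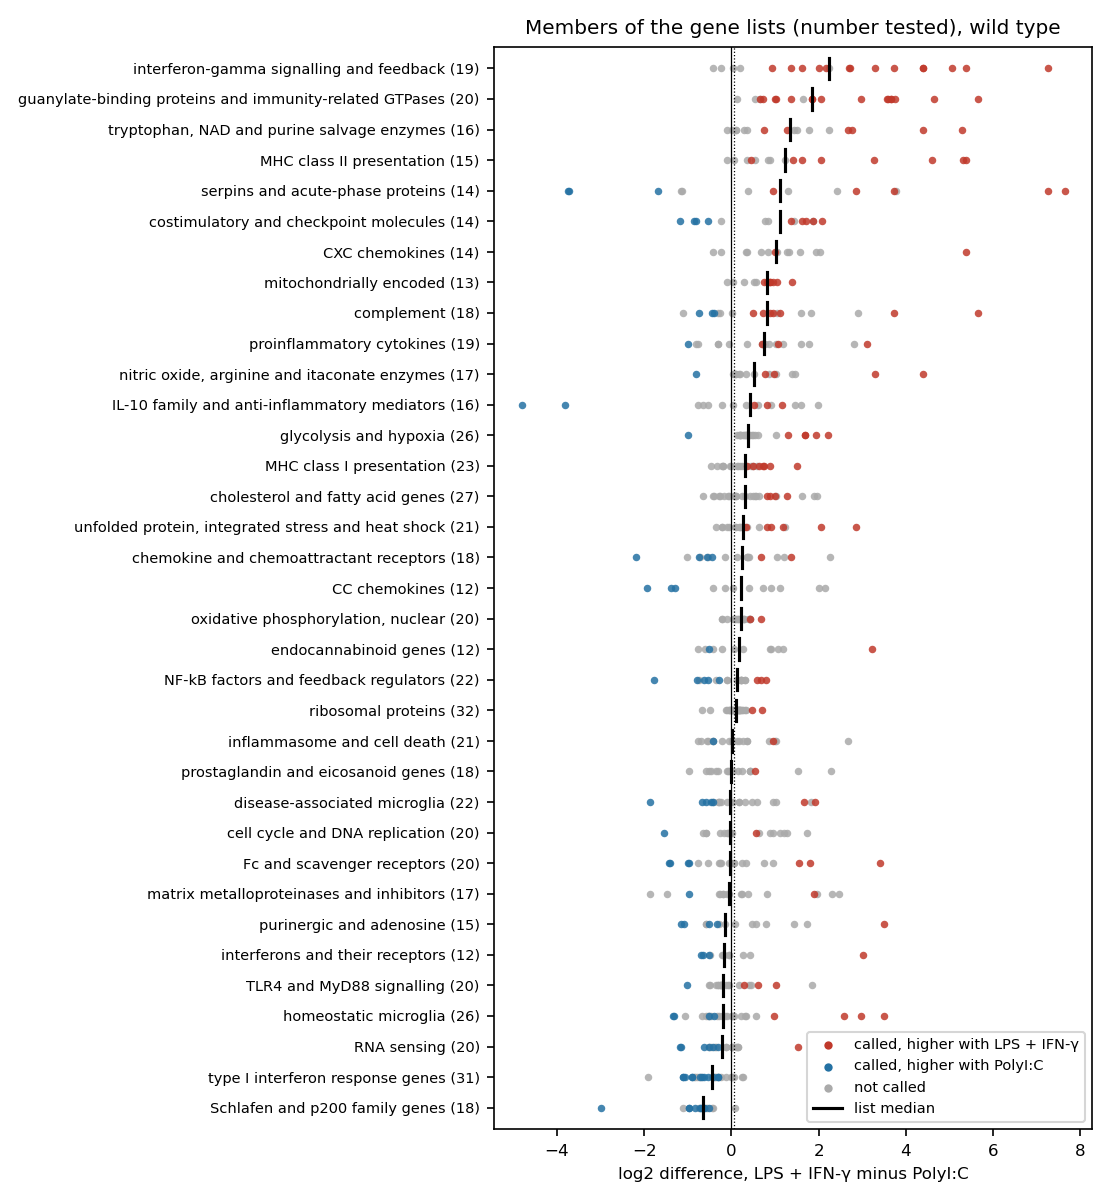
Log2 differences between LPS plus interferon-γ and PolyI:C (x axis) of all tested members of each gene list in wild-type microglia, with called members coloured and the median of the list marked. The interferon-γ signalling, GBP and class II lists lie to the right of 0, and the type I interferon and the Schlafen and p200 lists to the left.

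Signal regulators of the NF-κB and MAPK pathways were higher with PolyI:C in 5 of 22 and with LPS plus interferon-γ in 3, and in 5 and 2 without PolyI:C replicate 1. The shares over all genes were 3.91% and 5.35%. Dusp2, a nuclear phosphatase of MAP kinases, stood at 311, 282 and 429 against 1378, 1033 and 1051 (-1.77 ± 0.43, adjusted p = 0.00774, limma). Map3k8, the kinase TPL2, which links receptors to ERK, was at 306, 273 and 300.2 against 623, 627 and 525 (-1.01 ± 0.15, adjusted p = 3.39e-05, limma). Nfkbiz, a nuclear cofactor of NF-κB, differed by -0.63 and Nfkbie, an inhibitor of it, by 0.80, both called. Ribosomal protein genes hardly separated the stimuli, with 2 of 32 called, and 0 without PolyI:C replicate 1.

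In the libraries labelled CB2-/- the same 2 stimuli were separated by 1747 genes (11.9%), with 1019 (6.95%) higher with LPS plus interferon-γ and 728 (4.96%) higher with PolyI:C. Of those higher with LPS plus interferon-γ, 248 were called so in both sets of libraries, out of 785 in wild type and 1019 in the other. Of those higher with PolyI:C, 101 were called so in both, out of 573 and 728. Other genes were called in opposite directions. In the libraries labelled CB2-/-, 73 of the 785 were called higher with PolyI:C and 97 of the 573 higher with LPS plus interferon-γ. The remaining 464 and 375 were not called there. The difference between the 2 contrasts was itself called for 1356 genes (9.24%). PolyI:C replicate 2 of this set stood apart, with 54.3% of its summed values in 10 genes, against 8.56 to 22.5% in the other 5 libraries. Without it 854 genes were higher with LPS plus interferon-γ and 555 higher with PolyI:C. Genotype and library number series are the same split for stimulated cells and cannot be told apart. Cnr2 was detected in the libraries labelled CB2-/-, at 217, 229 and 234 with LPS plus interferon-γ and 329, 412 and 368 with PolyI:C. These values are per gene and do not show which part of the transcript was read, so they do not decide the genotype. It is taken from the labels.

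Several interferon-γ genes were called higher with LPS plus interferon-γ in both sets. Serpina3g differed by 7.96 ± 0.63 in the libraries labelled CB2-/- (7.26 in wild type), Cxcl9 by 9.24 ± 0.93 (5.37), Gbp4 by 3.75 ± 0.31 (3.67) and Socs1 by 2.00 ± 0.65 (3.74). Cxcl9 differed by 8.29 without PolyI:C replicate 2 of that set, and over its 6 libraries left out singly by 8.29 to 10.57. The call of Socs1 in that set was lost without any 1 of its 6 libraries (adjusted p up to 0.156, limma). Ciita (difference between the contrasts 3.63 ± 1.10, adjusted p = 0.0376, limma) and H2-DMa (3.10 ± 0.64, adjusted p = 0.00217, limma) were among the exceptions, with a larger difference in wild type. So were Serpinb9 (1.71) and Irf8 (1.26), both called. The call for Ciita was lost without any of 10 of the 12 libraries, and that for Irf8 without any of 3. Nos2, H2-Aa and Gbp10 were not called in the libraries labelled CB2-/-, and neither was their difference between the contrasts. For Serpina3g, Cxcl9, Gbp4 and Socs1 the difference between the contrasts was not called. Its values with their SE were -0.70 ± 0.89, -3.88 ± 1.31, -0.09 ± 0.43 and 1.74 ± 0.92, in that order. Of the 31 type I interferon response genes, 15 were higher with LPS plus interferon-γ and 0 higher with PolyI:C in the libraries labelled CB2-/-, against 0 and 12 in wild type. These 15 became 10 when PolyI:C replicate 2 of that set was left out. Ifit1 differed by 1.15 ± 0.17 there and by -0.64 in wild type, and the difference between the contrasts was called (-1.78 ± 0.24, adjusted p = 2.54e-05, limma).

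Il10 was higher with LPS plus interferon-γ in the libraries labelled CB2-/-, at 41.8, 40.3 and 22.1 against 0, 7.3 and 25.4, with 1 PolyI:C library inside the range of the other group. That call was lost without LPS plus interferon-γ replicate 1 or 2 or PolyI:C replicate 1 of that set (1.22 to 3.58 over the 6 fits, adjusted p up to 0.284, limma). The sign was the reverse of wild type (difference between the contrasts -6.33 ± 1.08, adjusted p = 0.000336, limma). Il19 had the largest such difference (-6.35 ± 1.13, adjusted p = 0.000479, limma). Also among the 5 largest were AF529169 (5.95), U90926 (-5.84) and Fam13a (5.26). Ccl3 was at 8131, 8597 and 8511 against 1626, 1553 and 1645 there, also the reverse of wild type (-3.69 ± 0.36, adjusted p = 1.84e-07, limma), and so was Saa3 (18986, 20164 and 23142 against 3113, 3508 and 3278; -4.34 ± 0.34, adjusted p = 8.75e-09, limma). Mertk, which separated the stimuli in wild type, differed by -0.12 ± 0.14 there, at 585, 602 and 725 against 691, 678 and 701 (difference between the contrasts 3.09 ± 0.19, adjusted p = 3.32e-10, limma). Clec4n differed by -0.93 ± 0.22 (4.33 ± 0.30, adjusted p = 2.3e-09, limma).

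**Figure D5:**
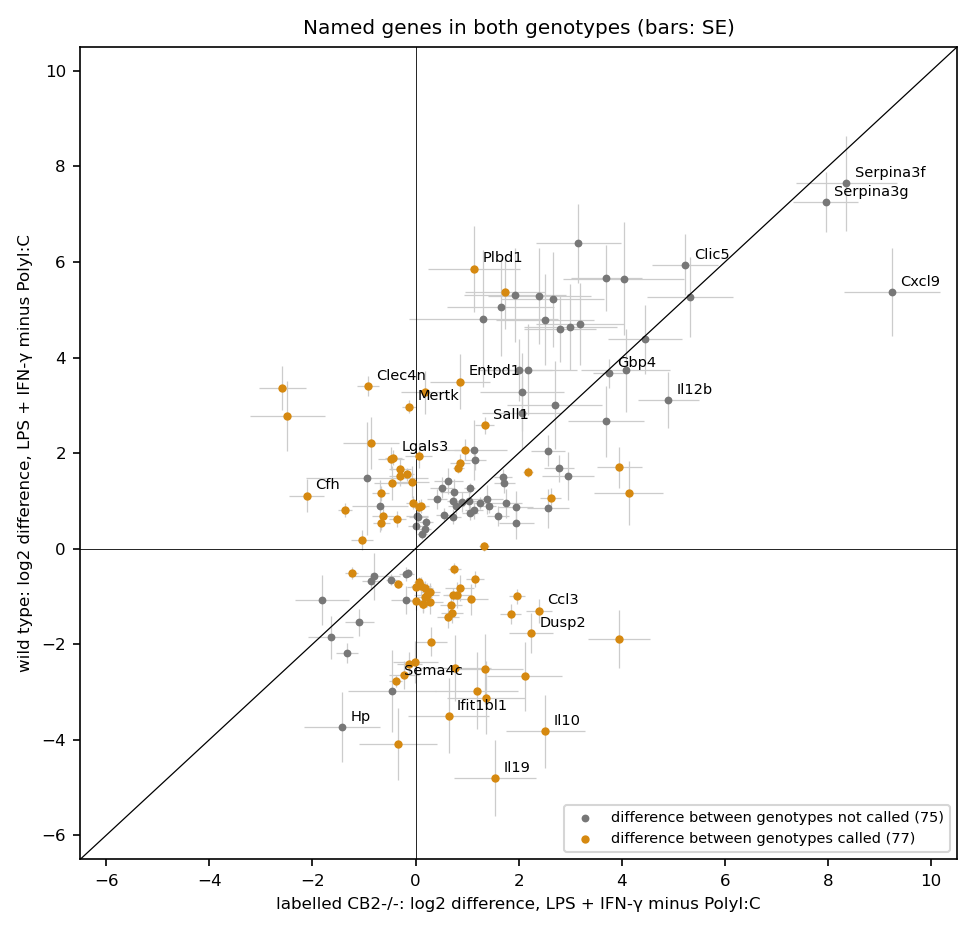
Log2 difference between LPS plus interferon-γ and PolyI:C in the libraries labelled CB2-/- (x axis) and in wild type (y axis) for the genes named by rule, with genes coloured where the difference between the contrasts was called. Bars are SE. Serpina3f, Serpina3g and Gbp4 lie near the line of equal values, while Il10, Il19 and Ccl3 are negative in wild type and lie far below it.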

How the data were processed

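RNA of cultured mouse microglia was sequenced with 75 bp single-end reads, per the labels' protocols, which describe a TruSeq v2 and a SMART-Seq2 preparation without saying which library had which. Per the submitters' processing notes, the tools were CASAVA 1.8, kallisto and DESeq2, without their roles; a genome build is not given in the sources used here, and an annotation neither. Normalised counts were deposited by the authors, a non-negative signal per gene and library, together with a batch-corrected table on a log2 scale that is used here as an alternative only. How the batches were defined is not given. Because the values are not whole reads, no count test was run.

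Groups follow the labels. Values of all 23995 genes were transformed to log2(value + 1), a pseudocount of 1, and the 14668 genes that reached 10 in 3 or more libraries entered limma 3.58.1 under R 4.3.3 (lmFit, contrasts.fit, eBayes with trend, two-sided, Benjamini-Hochberg, threshold 0.05). All 27 libraries entered 1 fit with terms for group and library number series (3012 to 3023, or 2048 to 2188), so they share 1 estimate of spread per gene. The contrasts were the stimuli in wild type, the same in the libraries labelled CB2-/-, their difference, and each stimulus against rest. Approximate reads per library are the summed values divided by the most frequent low value of the library. Smaller values also occurred, so these read numbers are rough. The fit was run on simulated data with 1 spread for all genes, no low genes and no outlying library. That run does not bear on genes near 0 or on PolyI:C replicate 1.

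The groups compared, gene lists and named genes were chosen with earlier results of these data known. By rule the text takes the 15 largest differences each way among called genes averaging 100 or more under the higher stimulus with no overlap, excluding gene models without a symbol. It adds up to 4 called members of each list with a mean of at least 50, a panel of 27 genes, and the 5 largest differences between genotypes; 152 genes fall under the rule, and not all are described. Chosen after their values were seen were Batf2, C5ar1, Cd48, Cd74, Cnp, Fcgr1, Flt1, Ifi204, Ifih1, Iigp1, Il10ra, Irf1, Irf8, Isg15, Itgam, Lgals9, Ms4a7, Msr1, Nfkbiz, Oas1a, Olfml3, Pfkfb3, Saa1, Saa3, Serpinb9, Siglec1, Tgtp1, Tnfsf9, Usp18, Vsir, Wars, mt-Nd1 and the cell type markers listed at 0. Positions are from GENCODE M21 on GRCm38 (23950 of 23995 identifiers matched) and promoter windows from RefSeq on GRCm38.p6 (105 of the 152 genes matched). Members of multigene families (Gbp, Ifi, Ifit, Slfn, H2, Serpina3, Ccl and Tgtp) share sequence, and their values are uncertain. Alternatives varied the pseudocount, filter, scaling, libraries in the fit, series term, library weights, variance model, input table and fold threshold, and dropped libraries singly. Plots used Python 3.11.15 with pandas 2.3.3 and matplotlib 3.10.9. A few genes that the rule named are not reported here.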

Additional observations from a re-analysis of the deposited data

Results flagged for a closer look

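For the genes below, the effect of LPS plus interferon-γ against PolyI:C differed between wild type and the libraries labelled CB2-/- by a test of that difference (limma, adjusted p at most 0.0499, the value of Il6). The values are the log2 difference in wild type minus that in the libraries labelled CB2-/-, so a negative value lies further towards PolyI:C in wild type. Such a difference was called for 9.24% of all tested genes, and library number series cannot be told apart from genotype here.

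The cytokines and chemokines had negative values: -6.35 for Il19, -6.33 for Il10, -3.69 for Ccl3, -3.22 for Ccl4, -2.25 for Ccl9, -1.28 for Ccl5, -2.96 for Ebi3, -2.96 for Il6 and -1.56 for Tnf. In wild type Ccl3, Ccl4, Ebi3 and Il10 were higher with PolyI:C, and in the libraries labelled CB2-/- they were higher with LPS plus interferon-γ (2.39, 1.84, 1.97 and 2.51). Tnf was called higher with LPS plus interferon-γ in both, by 1.06 and 2.62. Acute-phase genes were negative as well, at -5.65 for Saa1, -4.34 for Saa3 and -2.36 for S100a8.

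Interferon-responsive and RNA sensing genes had values of -4.14 for Ifit1bl1, -3.74 for Ifitm7, -1.78 for Ifit1, -1.69 for Rsad2, -1.59 for Usp18, -1.45 for Isg15, -1.39 for Mx2, -1.19 for Oas1g, -1.10 for Ifit3 and -1.08 for Oas1a. Tlr3 was at -1.87, Ddx58 at -1.31, Ifih1 at -1.02, Ifi207 at -1.02, Ifi204 at -0.90 and Ifngr2 at -0.76, while Tlr4 (1.22) was positive. Positive values of interferon-γ genes were 3.63 for Ciita, 3.10 for H2-DMa, 1.71 for Serpinb9 and 1.26 for Irf8.

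Receptors and surface molecules went both ways. Clec4n was at 4.33, Mertk at 3.09, Entpd1 at 2.63, Fcgr3 at 1.72, Ccr1 at 1.82, Cd86 at 1.10 and Marco at 0.93. Cd244 was at -2.43, Cd40 at -2.25, Fcgr2b at -2.07, Gpr84 at -2.05, P2ry2 at -1.30, Cd48 at -1.31, Msr1 at -1.07, Fcgr1 at -0.99, Lgals9 at -0.88, Tnfsf9 at -0.73, Icam1 at -0.57 and C3ar1 at -0.40. Icam1 and Cd40 were nonetheless called higher with LPS plus interferon-γ in both sets.

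Of the remaining genes, AF529169 (5.95), Fam13a (5.26), Plbd1 (4.73), Vegfa (3.08), Lgals3 (2.34), Lpl (1.96), Hilpda (1.88), Hmox1 (1.83), Sall1 (1.25), Hk3 (0.86), Abcg1 (0.81), Plau (2.36), mt-Nd1 (0.85) and Olfml3 (0.82) were positive. U90926 (-5.84), Urah (-4.79), Slc24a5 (-4.49), Slc28a2 (-4.16), Dusp2 (-4.01), Trem3 (-3.86), Lox (-3.26), Sema4c (-2.38), Stard7 (-2.29), Mmp14 (-1.68), Nfkbiz (-1.78), Pfkfb3 (-1.47), Map3k8 (-1.19), Cnp (-1.09) and Gch1 (-0.82) were negative.

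When 1 of the 12 libraries was left out in turn, the call of 17 of these genes was lost in at least 1 fit, at adjusted p up to 0.127. It was lost in 11 fits for Entpd1, Gch1, Il6 and Lox, in 10 for C3ar1 and Ciita, in 9 for Tnfsf9, in 6 for Ifih1, in 5 for Cd86 and Ifitm7, in 3 for Irf8, Marco and Trem3, in 2 for Cd40 and in 1 for Ccr1, Plbd1 and S100a8.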

How the results depend on the processing

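In wild type, 785 genes higher with LPS plus interferon-γ and 573 higher with PolyI:C became 428 and 324 when only the 12 wild-type libraries of the first number series were fitted, 1485 and 1270 with library weights, and 80 and 13 when tested against a 2-fold change. The authors' batch-corrected table gave 1041 genes higher with PolyI:C. In the libraries labelled CB2-/-, library weights gave 1233 genes higher with PolyI:C, the batch-corrected input gave 1283 of them, and the 2-fold test gave 88 higher with LPS plus interferon-γ and 33 higher with PolyI:C. The difference between the contrasts was called for 678 genes in the positive and 678 in the negative direction, for 1328 and 1357 with library weights, 31 and 30 with the 2-fold test, and 1111 and 1212 in the batch-corrected table. Leaving out 1 library gave 555 to 792 and 386 to 525 genes in wild type, 761 to 890 and 538 to 607 in those labelled CB2-/-, and then 510 to 664 positive and 509 to 702 negative differences, in the same order. The 2-fold test asks for a larger difference and the smaller fit uses fewer libraries; for the other settings the cause was not tested.

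Of 131 called genes named here, 95 kept the call in every alternative but the 2-fold test, which 90 did not pass. The most lost otherwise were 22 (only the 12 wild-type libraries) and 17 (no term for the number series), and none changed direction. Among genes named here as not called, 8 gained a call with library weights and 3 in the batch-corrected table. With a pseudocount of 10, with quantile scaling and with only the libraries compared, 2 gained a call each time. Arg1, which was not called, changed sign in the batch-corrected table (-0.285) and without PolyI:C replicate 1 (-0.164), and ranged up to 2.36 without another library. No paired analysis was possible because the labels give no replicate numbers that groups share. Depth limits the low genes most: PolyI:C replicate 1, with about 3.56 M reads, listed 12.2% of tested genes at 0, so differences of genes near 0 rest on the pseudocount.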

Other observations

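Several further groups of genes held a few called members each. Over all genes, 5.35% were called higher with LPS plus interferon-γ and 3.91% higher with PolyI:C. Of 27 genes of cholesterol and fatty acid metabolism, 4 were higher with LPS plus interferon-γ and 0 higher with PolyI:C in wild type, and 3 and 0 without PolyI:C replicate 1. Among them was Abcg1, a cholesterol exporter, which differed by 0.88 and was called. Of 17 matrix metalloproteinase and inhibitor genes 1 was called each way: Plau, the urokinase, was higher with LPS plus interferon-γ (178, 219 and 173 against 33.7, 55.4 and 68.2; 1.88) and Mmp14, a membrane-bound collagenase, higher with PolyI:C (3333, 3488 and 3446 against 6206, 6779.8 and 7114; -0.97). Of these 17 genes 1 and 2 were called without PolyI:C replicate 1.

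Of 18 chemokine and chemoattractant receptors, 2 were higher with LPS plus interferon-γ and 4 higher with PolyI:C, and 0 and 5 without PolyI:C replicate 1. Ccr1, the receptor of Ccl3 and Ccl9, stood at 1583, 1611 and 1465 against 347, 758 and 822 and was not called without PolyI:C replicate 1 (1.37 with all libraries, adjusted p = 0.012; 0.97 without it, adjusted p = 0.108, limma). Of 15 purinergic and adenosine genes, 1 (Entpd1) was higher with LPS plus interferon-γ and 4 higher with PolyI:C, among them P2ry2, a receptor for ATP and UTP, at 127, 117 and 109 against 226, 289 and 278 (-1.16 ± 0.19, adjusted p = 0.0002, limma). Of 20 cell cycle and replication genes, Mcm6, a subunit of the replicative helicase, was higher with PolyI:C, at 69.9, 104 and 132 against 302, 306 and 264 and 175, 315 and 248 at rest (-1.54 ± 0.28, adjusted p = 0.000617, limma). Pcna, the sliding clamp of DNA polymerases, was higher with LPS plus interferon-γ (0.55). Of 21 inflammasome and cell death genes 1 was called each way, of 20 genes of TLR4 and MyD88 signalling 3 and 1, and of 18 prostaglandin genes 1 and 0, beside 5.35% and 3.91% of all genes. Without PolyI:C replicate 1 these were 0 and 3, 1 and 1, and 0 and 2, higher with LPS plus interferon-γ and higher with PolyI:C in that order.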
